A study of Saccharomyces cerevisiae with 13 samples.

Results

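Yeast treated with SMER1 and rapamycin together were compared with yeast given only the solvent. The 2 arrays of the combined treatment (SMER1+Rapa, SMER1 at 20 µM with rapamycin at 100 nM) and the 3 arrays of the solvent control (DMSO) were taken by their titles, 5 of the 13 arrays of the series. All probe sets with a single gene name entered, 5498 of 5716, and they measured 5449 genes. Rapamycin alone at 100 nM and SMER1 alone at 20 µM, with 2 arrays each, served to place the combined treatment beside each of its agents at the same dose. Every culture was BY4741, a haploid a-type laboratory strain that lacks functional HIS3, LEU2, MET17 and URA3, taken in mid-log growth in rich glucose medium (YPD) at 30 °C, and every treatment lasted 30 min. SMERs are small molecule enhancers of rapamycin found by their effect on growth and are known by code names. The series asked which expression changes each SMER gives beside those of rapamycin. The labels number the replicates and do not say that they were separate cultures, so the p-values measure only the spread between these samples, which may be technical. The record covers 1 strain, 1 time and 1 pair of doses, and RNA came from whole cultures, so fewer cells in a given state and less RNA per cell cannot be told apart.

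Rapamycin binds the prolyl isomerase Fpr1, and the pair inhibits TOR complex 1, a kinase complex on the vacuole that reads amino acid and nitrogen supply. Active TOR complex 1 drives the making of ribosomes through the kinase Sch9 and the factors Sfp1 and Ifh1, and keeps the nitrogen factors Gln3 and Gat1 and the stress factors Msn2 and Msn4 out of the nucleus. Inhibited cells stop making ribosomes, take up poor nitrogen sources, start autophagy, store carbohydrate and leave the cell cycle in G1.

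The values were log2 signal intensities as deposited, with array medians between 10.99 and 11.07, and a difference is a log2 fold change. The sign ± gives its standard error, and called genes are those with an adjusted p (Benjamini-Hochberg, over all genes) under 0.05. A level was never compared between genes, since probe sets differ in brightness. The SMER1+Rapa arrays correlated across genes with r = 0.9921 and the DMSO arrays with r between 0.9841 and 0.9907, with a median SD between arrays of 0.075 and 0.111. The median gene stood at a difference of 0.09 from DMSO, which fell to 0.01 after quantile normalisation, so small rises are read against that shift.

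The combined treatment changed most of the measured transcriptome. Of 5449 genes, 3860 were called (70.8%), 2159 higher (39.6%) and 1701 lower (31.2%) than in DMSO. Counts of called list members below are read beside these shares. Both SMER1+Rapa arrays lay above all 3 DMSO arrays for 2417 genes (44.4%) and below them for 1956 (35.9%). At 2-fold or more the count was 802 higher (14.7%) and 638 lower (11.7%), and at 4-fold or more 261 higher (4.79%) and 258 lower (4.73%). At 16-fold or more 46 genes were higher (0.844%) and 3 lower (0.0551%). Against rapamycin alone 2527 genes were called (46.4%), 988 higher (18.1%) and 1539 lower (28.2%). Against SMER1 alone 906 were called (16.6%), 270 higher (4.96%) and 636 lower (11.7%). The count against rapamycin was 1643 without the second SMER1+Rapa array, where 607 were higher, and 648 were higher without the second rapamycin array. The count against SMER1 lay between 445 and 559 when any 1 array of either group was left out. Quantile normalisation moved the split against SMER1 to 475 higher and 637 lower.

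The 20 largest rises were in genes of varied roles, and 3 of them, DAL80, PUT4 and DAL3, were in the nitrogen lists. YNL194C, a membrane protein of the SUR7 family, read 6.04, 5.94 and 4.80 on the DMSO arrays and 12.24 and 12.54 on the SMER1+Rapa arrays, a difference of 6.80 ± 0.35 (adjusted p = 2.23e-06). SPG4, a gene needed for survival in stationary phase, read 6.01, 7.20 and 6.69 in DMSO and 13.05 and 12.99 in SMER1+Rapa, a difference of 6.38 ± 0.31. LSO1, a small protein linked to iron deficiency, rose by 5.67 ± 0.41 and HXT5, a hexose transporter of slow-growing cells, by 5.43 ± 0.17. All 4 were dim in DMSO and bright on both SMER1+Rapa arrays. AQY1, an aquaporin of spores, rose by 5.38 ± 0.51, ATO2, of the ammonium and acetate exporter family, by 5.35 ± 0.09, and the membrane protein gene PHM7 by 5.26 ± 0.15. Also among the 20 largest rises were LEE1 at 5.38 ± 0.35, IRC15 at 5.21 ± 0.41, FMP16 at 5.04 ± 0.17, BAG7, a GTPase-activating protein of Rho1, at 5.08 ± 0.31, and SPS100, a spore wall protein, at 4.996 ± 0.50.

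The largest falls were mostly in genes that make ribosomes. RRP36, a factor of early ribosomal RNA cleavage, read 10.83, 10.78 and 10.85 in DMSO and 6.29 and 6.52 in SMER1+Rapa, a difference of −4.42 ± 0.18 (adjusted p = 8.63e-07). AAH1, adenine deaminase, read 12.29, 12.34 and 12.26 in DMSO and 7.91 and 8.31 in SMER1+Rapa, a difference of −4.19 ± 0.33. RIX1, of the complex that cleaves the second internal spacer of ribosomal RNA, read 11.96, 11.84 and 11.84 and 7.77 and 7.94, a difference of −4.02 ± 0.22. In all 3 the groups were several log2 units apart. Of the 20 largest falls, 14 belonged to the lists of ribosome assembly factors or RNA polymerase I, which were chosen with earlier results of these data known. The rest were AAH1, GFD2 at −3.56 ± 0.26, ATC1 at −3.52 ± 0.26, MRD1, a small subunit assembly factor outside the list, at −3.51 ± 0.25, SPO19 at −3.48 ± 0.66 and JJJ3, which serves diphthamide synthesis, at −3.47 ± 0.22.

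**Figure D1:**
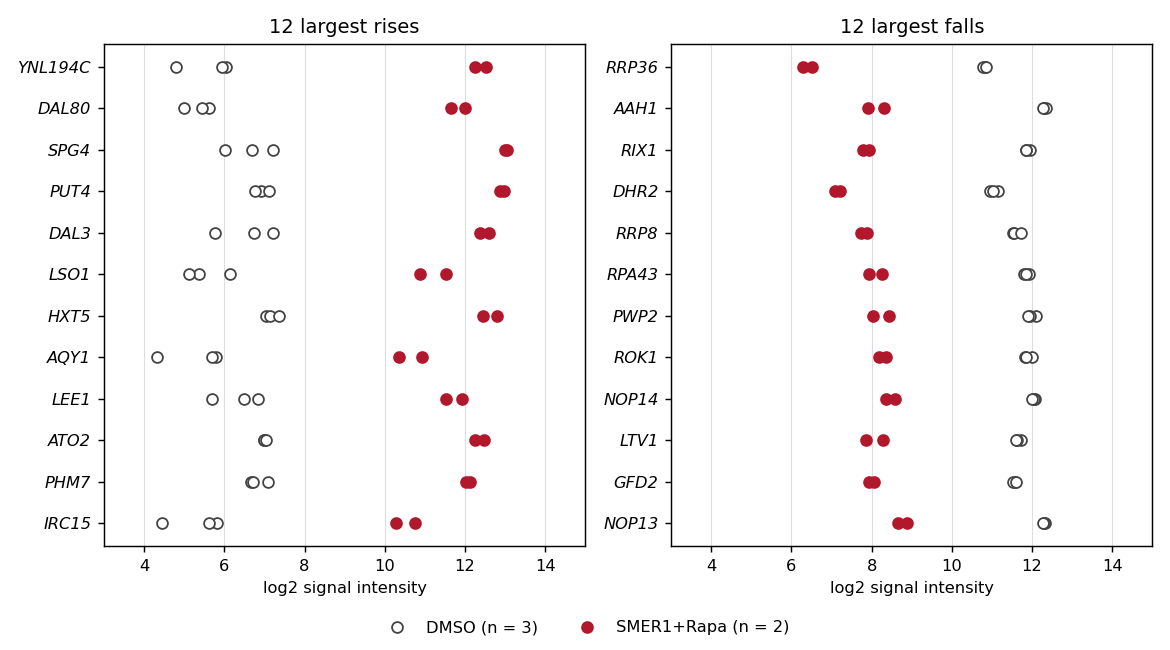
Deposited log2 intensity (horizontal axis) of the 12 genes with the largest rises and the 12 with the largest falls among called genes whose SMER1+Rapa arrays lay outside the DMSO range. Each open point is a DMSO array (n = 3) and each filled point a SMER1+Rapa array (n = 2), and the groups do not overlap for any of the 24 genes, as the choice of genes requires.

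Nitrogen catabolite repression holds down the uptake and use of poor nitrogen sources while good ones are at hand. Nearly all of its listed targets rose with the combined treatment. All 10 permeases of the list were called higher (39.6% of all genes were), with a median difference of 3.51, against 0.09 over all genes. MEP2, the ammonium permease and sensor, read 9.33, 9.59 and 9.61 in DMSO and 13.96 and 13.82 in SMER1+Rapa, a difference of 4.38 ± 0.10 (adjusted p = 1.5e-07). PUT4, the proline permease, read 6.91, 6.78 and 7.12 and 12.87 and 12.97, a difference of 5.98 ± 0.11. The urea transporter gene DUR3 rose by 4.60 ± 0.15 and GAP1, the broad amino acid permease, by 3.91 ± 0.09, and the smallest rise was that of the ammonium permease gene MEP3, 0.30 ± 0.06. Of 15 enzymes of allantoin, proline, GABA, arginine and glutamate use, 14 were called higher and none lower, with a median of 1.95. DAL3, ureidoglycolate lyase, read 7.22, 6.73 and 5.77 in DMSO and 12.59 and 12.36 in SMER1+Rapa, a difference of 5.90 ± 0.36, and PUT1, proline oxidase, rose by 3.68 ± 0.21. The exception was GLT1, glutamate synthase, at −0.38 ± 0.17 (adjusted p = 0.0819, and 0.0498 without the first DMSO array). GLT1 was also called lower after quantile normalisation (−0.46, adjusted p = 0.0453), with the replicate block (0.00838) and with only the groups compared (0.0499).

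Most of these genes were higher than with SMER1 alone, by a median of 2.61 for the permeases and 0.62 for the enzymes, and more of them lay below rapamycin alone than above it. Of the 25 nitrogen genes, 22 were called above SMER1 alone (4.96% of all genes were) and none below it. MEP2 read 14.15 and 14.09 with rapamycin alone and 9.74 and 9.78 with SMER1 alone, so that the combined treatment stood at 4.13 ± 0.11 from SMER1 and at −0.23 ± 0.11 from rapamycin, the latter not called (adjusted p = 0.122). The 12 largest rises over SMER1 alone among all genes were DAL80, MEP2, DAL3, OPT2, DUR3, PUT4, PUT1, UGA4, DAL5, DAL1, DAL7 and MEP1. Every one of them is in the nitrogen lists. Those lists were chosen with earlier results of these data known, so the match is no independent support. Within the set, most allantoin genes were lower than with rapamycin alone. DAL1, allantoinase, read 11.42 and 11.61 with rapamycin and 8.76 and 8.59 with both agents, a difference of −2.84 ± 0.17 (adjusted p = 5.15e-05), and the allantoin permease gene DAL4 differed by −2.79 ± 0.13. Of the 25 genes, 14 were called below rapamycin alone (28.2% of all genes) and 3 above it (18.1% of all genes), PUT4 at 0.90 ± 0.12, the GABA pathway gene UGA2 at 0.42 ± 0.08 and MEP1 at 0.36 ± 0.12.

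The factors behind nitrogen control moved unevenly. DAL80, the GATA repressor that nitrogen limitation induces, read 5.62, 5.000 and 5.45 in DMSO and 11.998 and 11.66 in SMER1+Rapa, a difference of 6.47 ± 0.24, and stood at −0.89 ± 0.27 from rapamycin alone and 5.39 ± 0.27 from SMER1 alone, both called. GAT1, an activator, rose by 1.62 ± 0.12, GZF3, another repressor, by 0.83 ± 0.08, the allantoin activator DAL82 by 0.81 ± 0.07 and the proline activator PUT3 by 0.72 ± 0.09. The activator GLN3 stood at 0.31 ± 0.14 and its anchor URE2 at −0.24 ± 0.10, neither called, although each passed with 1 array left out, GLN3 without the first SMER1+Rapa array and URE2 without the DMSO array numbered 3 (adjusted p = 0.0232 and 0.0418). Both also passed after quantile normalisation (adjusted p = 0.0229 for GLN3 and 0.017 for URE2) and with the replicate block (0.00507 and 0.00349), and URE2 without the lowest 25% of genes (0.0411) and with trend and robust moderation (0.0412). Of 24 genes of TOR complex 1, its inputs and its effectors, 11 were called higher and 4 lower (39.6% and 31.2% of all genes), a share near the background on the high side, with a median of 0.22, and 7 were called higher without the second SMER1+Rapa array. NPR1, the kinase that holds permeases at the surface, rose by 1.39 ± 0.10, RRD2, a phosphatase activator, by 1.02 ± 0.12, NPR2, of the complex that restrains TOR complex 1, by 0.71 ± 0.10 and GTR2, a GTPase of amino acid sensing, by 0.37 ± 0.13, a call lost without either SMER1+Rapa array or the DMSO arrays numbered 2 or 3 (adjusted p between 0.06 and 0.155). The kinase genes TOR1 and TOR2 stood at 0.33 ± 0.17 and 0.00 ± 0.18, not called. TOR1 passed without the first DMSO array (adjusted p = 0.0459) and with the replicate block (adjusted p = 0.00301). SCH9, which carries the growth signal, was lower at −0.48 ± 0.17, a call lost without the DMSO arrays numbered 2 or 3 or the first SMER1+Rapa array (adjusted p = 0.0947, 0.085 and 0.221), and YPK3, a kinase of ribosomal protein S6, was lower at −0.70 ± 0.13.

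The other amino acid permeases included genes that were low with rapamycin alone and not with both agents. Of 18, 11 were called higher and 3 lower than DMSO, with a median of 0.67. BAP2, a branched-chain amino acid permease, read 12.41, 12.48 and 12.44 in DMSO, 10.21 and 10.51 with rapamycin, 12.86 and 12.98 with SMER1 and 12.30 and 12.60 with both. The combined treatment differed from DMSO by 0.00 ± 0.12, not called, and lay above rapamycin by 2.09 ± 0.13 and at −0.47 ± 0.13 from SMER1, both called. MUP1, the high-affinity methionine permease, read 12.28, 12.39 and 12.21 in DMSO, 10.71 and 10.91 with rapamycin and 12.76 and 12.92 with both, and was above rapamycin by 2.03 ± 0.12. MMP1, the S-methylmethionine permease, stood at −0.82 ± 0.15 from DMSO and 1.26 ± 0.17 from rapamycin. The peptide transporter gene PTR2 rose by 2.29 ± 0.45 and yet stood at −1.80 ± 0.50 from rapamycin alone. AGP1, a permease of many amino acids, rose by 2.17 ± 0.15 and CAN1, the arginine permease, by 1.71 ± 0.12.

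Ribosome assembly factors fell together, and most were lower than with either agent alone. All 56 measured factors of the small subunit processome, which cuts and folds the small subunit's RNA, were called lower than DMSO (31.2% of all genes were), with a median of −2.79 and a range from −4.42 to −1.04. Of 68 large subunit assembly factors 67 were called lower, with a median of −2.70, and the paralog SSF2 stood at −0.78 ± 0.39, not called. All 9 core proteins of the small nucleolar particles that guide RNA modification were lower, with a median of −2.02. PWP2, a scaffold of the processome, read 12.09, 11.96 and 11.91 in DMSO, 9.10 and 9.77 with rapamycin, 9.95 and 10.31 with SMER1 and 8.04 and 8.44 with both. The 2 arrays of the combined treatment lay below all arrays of the other 3 groups. NOP1, the fibrillarin methyltransferase, read 13.36, 13.43 and 13.19 in DMSO, 11.93 and 12.48 with rapamycin, 12.22 and 12.54 with SMER1 and 11.11 and 11.42 with both, and again the arrays of both agents were the lowest.

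Called below rapamycin and also below SMER1 were 46 of the 56 processome factors, 57 of the 68 large subunit factors and all 9 particle proteins, where 8.7% of all genes met both conditions. The median of the processome list was −0.88 against rapamycin and −1.28 against SMER1. Leaving out 1 array at a time left between 29 and 51 of the 56, lowest without the first SMER1+Rapa array, and between 41 and 63 of the 68. RCL1, an endonuclease, stood at −1.35 ± 0.25 from rapamycin and −1.65 ± 0.25 from SMER1, and NOG2, a GTPase of nuclear export, at −1.44 ± 0.34 and −1.78 ± 0.34. Among the factors not called below rapamycin were some large ones. RRP5, a processome organiser, read 8.95 and 9.48 with rapamycin and 9.65 and 9.79 with both, a difference of 0.50 ± 0.18 (adjusted p = 0.0513), UTP20 differed from rapamycin by 0.11 ± 0.16, not called, and REA1, the giant AAA-type remodeller of the large subunit, was higher than with rapamycin by 0.62 ± 0.18 (adjusted p = 0.0238).

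Most genes of the polymerases that make ribosomal and transfer RNA fell as well. Of 15 subunits and initiation factors of RNA polymerase I, 13 were called lower, with a median of −1.51. RPA43 read 11.80, 11.93 and 11.85 in DMSO and 7.93 and 8.27 in SMER1+Rapa, a difference of −3.76 ± 0.21, and RPA49 differed by −3.39 ± 0.22. RPA190, the largest subunit, stood 0.45 ± 0.13 above rapamycin alone (adjusted p = 0.0272) and RPA135, the next largest, at 0.20 ± 0.25, not called, while RPA12 was lower than rapamycin by −1.08 ± 0.13. RRN5 and RRN10, of the upstream activating factor, stood at 0.10 ± 0.08 and 0.11 ± 0.11, not called. Of 18 genes of RNA polymerase III and its factors, 12 were lower and 1 higher. All 10 subunits were among those lower, from RPC25 at −2.93 ± 0.07 to RPC11 at −1.12 ± 0.07, while TFC3, TFC4, TFC8, BRF1 and BDP1 of its initiation factors were not called. The 7 subunits shared between polymerases were all called lower, with a median of −1.53, and all 7 were below both single agents. Of 7 subunits particular to RNA polymerase II, 2 were lower and 1 higher, with a median of 0.01.

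Most ribosomal protein genes were lower, by smaller amounts. Of 127 cytosolic ribosomal protein genes, 85 were called lower than DMSO and none higher, with a median of −0.40, and 26 of the 127 have probe sets shared with similar transcripts. The list median was −0.07 with rapamycin and −0.09 with SMER1. The medians of the SMER1+Rapa arrays were −0.36 and −0.48 from the DMSO mean, and those of the DMSO arrays 0.09, 0.07 and −0.16. Called below both single agents were 47 of the 127 (8.7% of all genes), and between 19 and 36 when 1 array of the 3 treated groups was left out, 29 and 19 without the first or second SMER1+Rapa array and 27 and 31 without the first or second SMER1 array. Quantile normalisation gave 75. RPS9A read 12.94, 13.03 and 13.04 in DMSO, 11.96 and 12.53 with rapamycin, 12.88 and 13.01 with SMER1 and 11.24 and 11.52 with both, with differences of −1.63 ± 0.17 from DMSO and −1.56 ± 0.18 from SMER1. Its paralog RPS9B differed from DMSO by −0.91 ± 0.09. In other paralog pairs too the genes differed in size of change, with RPL22B at −1.81 ± 0.09 and RPL22A at −0.76 ± 0.10, and RPS14B at −1.47 ± 0.10 and RPS14A at −0.32 ± 0.12, whose call was lost without any one of the first 2 DMSO arrays or of the SMER1+Rapa arrays (adjusted p between 0.0824 and 0.19). Not called were, among others, RPL3 at 0.06 ± 0.12, RPS3 at −0.04 ± 0.08, RPL10 at 0.09 ± 0.09 and the stalk protein gene RPP0 at −0.06 ± 0.09. After quantile normalisation RPS3 and RPP0 were called lower, at −0.16 and −0.20 (adjusted p = 0.0254 and 0.0134).

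Regulators of the ribosome genes moved in both directions. IFH1, the coactivator at ribosomal protein promoters, read 11.63, 11.55 and 11.56 in DMSO and 9.51 and 9.76 in SMER1+Rapa, a difference of −1.95 ± 0.12, and was below rapamycin by −1.28 ± 0.13 and SMER1 by −0.93 ± 0.13. RAP1, which binds the same promoters, differed from DMSO by −1.36 ± 0.07 and FHL1, the partner of Ifh1, by −0.87 ± 0.12. CRF1, a corepressor that competes with Ifh1, was higher at 1.73 ± 0.28, and STB3 and DOT6, repressors of ribosome assembly genes, at 0.56 ± 0.08 and 0.43 ± 0.12, the latter not called without the second SMER1+Rapa array (adjusted p = 0.0846). Of 34 translation factors, 27 were lower and 1 higher, with a median of −0.64. RLI1, the ribosome recycling ATPase, differed by −2.27 ± 0.17, NIP1 of initiation factor eIF3 by −1.46 ± 0.15 and TIF4631, eIF4G, by −1.47 ± 0.12. Of 18 cytosolic aminoacyl-tRNA synthetases 13 were lower, and 8 without the second SMER1+Rapa array, with a median of −0.41. Mitochondrial ribosomal proteins went the other way, with 56 of 71 called higher, 1 lower and a median of 0.37, led by RSM10 at 0.98 ± 0.07.

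**Figure D2:**
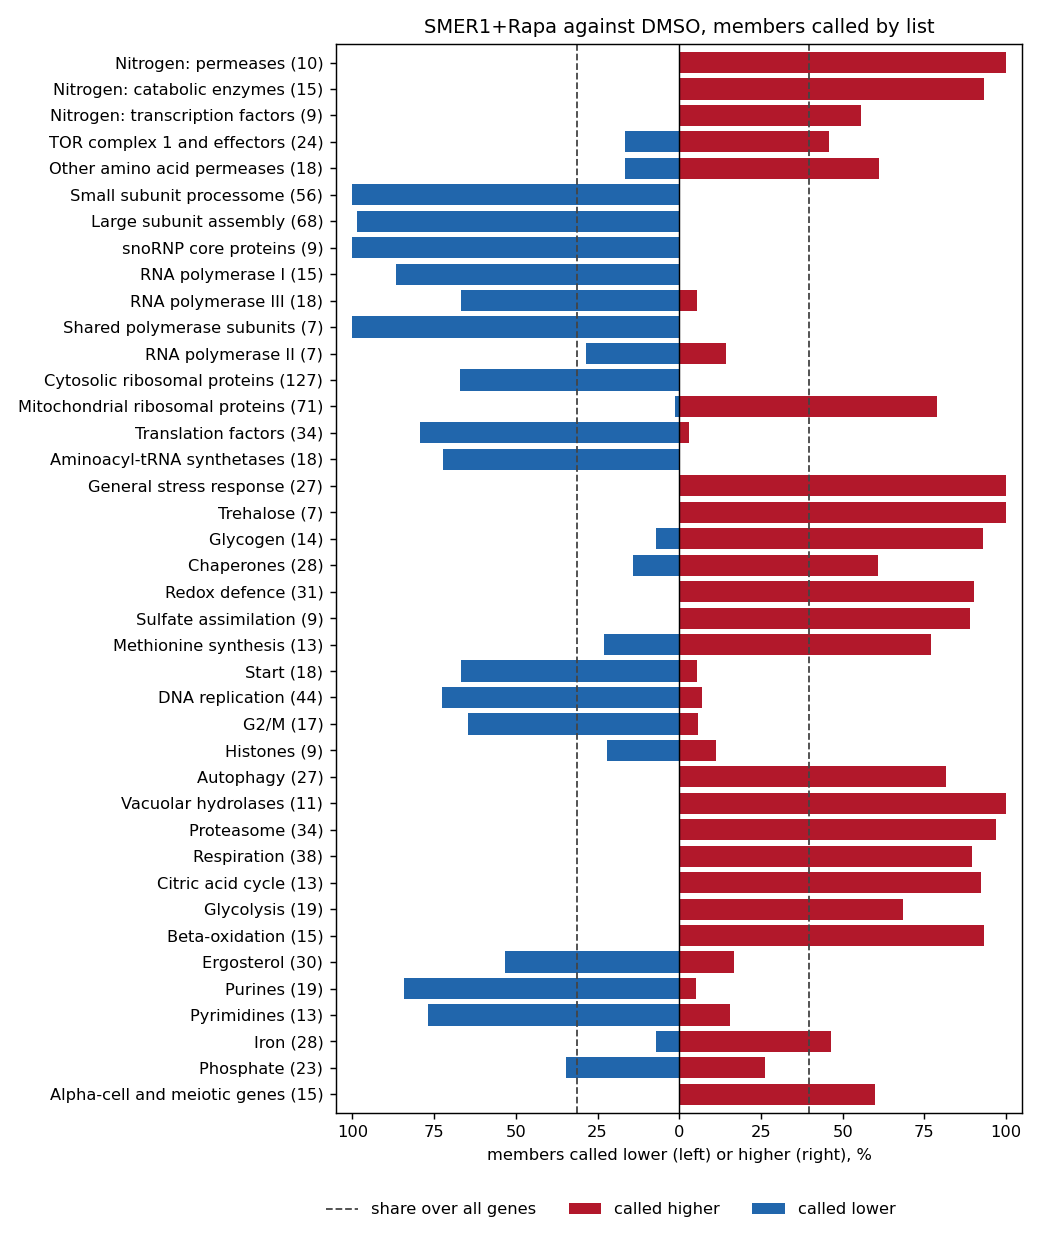
Share of the measured members of 40 gene lists called higher (right) or lower (left) in SMER1+Rapa than in DMSO, in percent, with the number of members beside each list. The dashed lines mark the shares over all 5449 genes, 39.6% higher and 31.2% lower; the bars of the processome and of the snoRNP core proteins reach 100% on the left and those of the general stress response and trehalose 100% on the right.

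The listed genes of the general stress response all rose. All 27 targets of Msn2 and Msn4 on the list were called higher (39.6% of all genes were), with a median of 3.23. Each rose at least 2-fold (14.7% of all genes did). The list was chosen with earlier results of these data known, so the count does not speak for the whole response. CTT1, cytosolic catalase, read 8.64, 8.76 and 8.59 in DMSO and 12.96 and 13.19 in SMER1+Rapa, a difference of 4.41 ± 0.18 (adjusted p = 8.95e-07). RTN2, a reticulon of the endoplasmic reticulum, rose by 4.77 ± 0.21, XBP1, a repressor of cyclin genes, by 4.99 ± 0.21, and HSP12, a membrane-protecting protein, by 2.74 ± 0.22. Most members were above rapamycin alone. Most were not called against SMER1 alone, as was true of most genes (16.6% of all genes were called). Of the 27, 23 were called above rapamycin (18.1% of all genes were), with a median of 1.39, and 5 above SMER1 (4.96% of all genes), with a median of 0.21. DDR2 read 12.42 and 12.81 with rapamycin, 13.89 and 13.97 with SMER1 and 14.02 and 14.01 with both. Of 14 regulators, 8 were higher and 1 lower. MSN4, itself a target, rose by 2.25 ± 0.28, the kinase genes YAK1 and RIM15 by 1.86 ± 0.08 and 0.78 ± 0.10, and the post-diauxic factor GIS1 by 1.35 ± 0.11, while MSN2 stood at 0.25 ± 0.15, not called here.

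Nearly all genes of carbohydrate stores rose. All 7 trehalose genes were called higher, from TPS3 at 1.20 ± 0.07 to TSL1, a synthase subunit, at 2.46 ± 0.08, and the genes of breakdown were among them, NTH1 at 1.67 ± 0.10 and ATH1 at 2.32 ± 0.11. Of 14 glycogen genes 13 were higher. GPH1, glycogen phosphorylase, read 10.03, 10.09 and 10.29 in DMSO and 13.84 and 13.84 in SMER1+Rapa, a difference of 3.71 ± 0.08, and the synthase gene GSY2 rose by 2.36 ± 0.09. GIP2 and GAC1, which bring phosphatase 1 to glycogen synthase, rose by 4.84 ± 0.32 and 4.27 ± 0.46, and stood 3.78 ± 0.35 and 3.11 ± 0.50 above rapamycin. PGM1, the minor phosphoglucomutase, was the one gene lower, at −0.54 ± 0.10, while its paralog PGM2 rose by 3.32 ± 0.09. None of the 7 trehalose genes and 1 of the 14 glycogen genes, GLG2 at 0.31 ± 0.09, was called against SMER1 alone. Over all genes the share called was 16.6%, so few calls could be looked for in lists this short. The 95% interval of the TSL1 difference from SMER1 ran from −0.11 to 0.32.

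Chaperones and redox genes rose in part. Of 28 cytosolic and mitochondrial chaperones, 17 were higher and 4 lower (39.6% and 31.2% of all genes), with a median of 0.47. HSP30, a negative regulator of the plasma membrane proton pump, read 7.88, 9.16 and 9.32 in DMSO, 8.04 and 8.50 with rapamycin, 12.40 and 13.09 with SMER1 and 12.41 and 12.96 with both. Here the SMER1 and combined arrays lay together and the rapamycin arrays with DMSO. HSP31 rose by 3.19 ± 0.07, the small heat shock protein gene HSP42 by 2.37 ± 0.14 and the disaggregase gene HSP104 by 1.09 ± 0.06, whereas YDJ1 and SSB2, chaperones of growing cells, were lower at −0.76 ± 0.13 and −0.48 ± 0.09. Of 12 genes of folding in the endoplasmic reticulum, 4 were higher and 5 lower, near the shares of all genes. Fewer were lower without the second SMER1+Rapa array. Of 31 redox genes, 28 were higher and none lower, with a median of 0.93. TSA2, a peroxiredoxin, rose by 4.87 ± 0.09, the old yellow enzyme gene OYE3 by 3.95 ± 0.08, the glutathione transferase gene GTT2 by 3.88 ± 0.19 and sulfiredoxin, SRX1, by 3.01 ± 0.13. GSH1, the first enzyme of glutathione synthesis, read 11.64, 11.71 and 11.71 in DMSO, 11.45 and 11.62 with rapamycin and 12.70 and 12.80 with both.

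Genes of sulfate uptake and reduction stood higher than in DMSO and, for most, lower than with SMER1 alone. Of 9 genes of sulfate uptake and reduction, 8 were called higher than DMSO, with a median of 1.00, against 0.24 with rapamycin and 2.14 with SMER1. Called below SMER1 alone were 7 of the 9 (11.7% of all genes), and 8 were above rapamycin. MET3, ATP sulfurylase, read 9.86, 9.91 and 9.71 in DMSO, 10.08 and 10.05 with rapamycin, 12.40 and 12.75 with SMER1 and 11.34 and 11.44 with both. The combined arrays fell between those of the single agents, at 1.32 ± 0.12 from rapamycin and −1.19 ± 0.12 from SMER1. SUL1, the sulfate permease with the largest rise, 3.98 ± 0.52, stood at −0.57 ± 0.57 from SMER1, not called. Of 13 genes of methionine and S-adenosylmethionine, 10 were higher, and 6 without the second SMER1+Rapa array, and 3 were lower, while 3 of the 13 were called below SMER1 alone. MET2, homoserine acetyltransferase, rose by 2.88 ± 0.17 and STR3, a transsulfuration enzyme, by 2.52 ± 0.31, while SAM1, a synthetase of S-adenosylmethionine, was lower at −0.89 ± 0.13 and below SMER1 alone by −0.85 ± 0.14. Of the activators, MET28 and MET32 rose by 2.85 ± 0.21 and 2.02 ± 0.28, and MET4 itself stood at −0.08 ± 0.11, not called. The strain lacks functional MET17, which acts downstream of sulfate reduction.

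Most cell cycle genes of late G1 and S phase were lower than in DMSO and lower than with rapamycin alone. Of 18 genes of Start, 12 were called lower and 1 higher, with a median of −0.46. CLN2, a G1 cyclin, read 11.38, 11.55 and 11.55 in DMSO, 11.70 and 11.99 with rapamycin, 10.35 and 10.27 with SMER1 and 10.12 and 10.14 with both, a difference of −1.36 ± 0.10 from DMSO and −1.72 ± 0.11 from rapamycin. CLB6, an S phase cyclin, differed from DMSO by −2.10 ± 0.08, NRM1, the repressor that closes the G1 wave, by −1.47 ± 0.07, and HO, the mating-type endonuclease gene, by −3.38 ± 0.16. CLN3 stood at 0.09 ± 0.12, WHI5 at 0.13 ± 0.30 and SIC1 at −0.01 ± 0.09, not called. Of 44 DNA replication genes, 32 were lower (31.2% of all genes) and 3 higher, with a median of −0.62, and 34 were called below rapamycin alone (28.2% of all genes). RNR1, the large subunit of ribonucleotide reductase, read 12.78, 12.75 and 12.62 in DMSO and 10.44 and 10.36 in SMER1+Rapa, a difference of −2.32 ± 0.08, and POL1, of the primase-polymerase, differed by −2.004 ± 0.15 and POL30, the sliding clamp, by −1.89 ± 0.08. Most helicase subunits moved little, with MCM4 at −0.12 ± 0.10 and MCM5 at −0.01 ± 0.06, not called. Of 17 mitotic genes 11 were lower and 1 higher, led by the forkhead factor FKH1 at −1.90 ± 0.11, with the cyclin CLB2 at −1.07 ± 0.20. Of 9 histone genes 2 were lower and 1 higher. No gene of Start and 1 of the mitotic list, FKH2 at −0.28 ± 0.08, was called against SMER1 alone. Few genes of any kind were, 16.6% of all genes. The difference of CLN2 from SMER1 had a 95% interval from −0.43 to 0.08.

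Most genes of self-digestion rose. Of 27 autophagy genes, 22 were called higher and none lower, with a median of 1.20, against 0.89 with rapamycin and 0.90 with SMER1. ATG8, the ubiquitin-like protein that coats the autophagosome, read 10.05, 10.11 and 10.06 in DMSO, 12.29 and 12.18 with rapamycin, 12.23 and 12.45 with SMER1 and 12.63 and 12.78 with both, a difference of 0.47 ± 0.10 from rapamycin and 0.36 ± 0.10 from SMER1, both called. ATG9 and ATG19 were the other 2 genes of the list called above both agents. ATG1, the kinase that starts autophagy, rose by 2.16 ± 0.15, and the scaffold gene ATG11 stood at 0.22 ± 0.11, not called. ATG11 passed without the first DMSO array (adjusted p = 0.0478) and with the replicate block (adjusted p = 0.00664). All 11 vacuolar hydrolases and inhibitors were higher, among them the proteinase inhibitor gene PAI3 at 3.34 ± 0.11 and the proteinase B gene PRB1 at 1.96 ± 0.10. Of 34 proteasome genes 33 were higher, with a median of 0.71 and none reaching 2-fold.

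Most genes of respiration and of other carbon sources rose. Of 38 nuclear genes of the respiratory chain and ATP synthase 34 were higher and none lower, with a median of 0.56, led by the external NADH dehydrogenase gene NDE2 at 4.62 ± 0.14 and the hypoxic cytochrome c gene CYC7 at 3.90 ± 0.21, while CYC1, the main cytochrome c, stood at −0.01 ± 0.11. CYC1 read 11.98 and 12.04 with rapamycin, 10.45 and 10.78 with SMER1 and 11.24, 11.46 and 11.42 in DMSO, and 11.38 and 11.35 with both. Of 13 genes of the citric acid cycle 12 were higher, with CIT3 at 2.70 ± 0.07 and CIT1, citrate synthase, at 1.25 ± 0.06. Of 19 glycolytic genes 13 were higher (39.6% of all genes were). Fewer were, near that share, with either SMER1+Rapa array left out or after quantile normalisation. The 6 glycolytic genes at 2-fold or more were EMI2, TDH1, GLK1, PFK26, HXK1 and PYK2, from 1.28 ± 0.07 to 2.03 ± 0.17. The main enzymes of flux lay near DMSO, with TDH3 at 0.00 ± 0.07 and PGK1 at 0.12 ± 0.08, not called. PDC5, an isozyme of pyruvate decarboxylase, read 10.04, 10.35 and 10.76 in DMSO, 10.06 and 10.39 with rapamycin, 14.39 and 14.30 with SMER1 and 14.49 and 14.42 with both, while the main isozyme gene PDC1 stood at 0.17 ± 0.08, not called. Of 19 hexose transport genes 10 were higher and 2 lower (39.6% and 31.2% of all genes), with fewer higher without the first SMER1+Rapa array. HXT1, the low-affinity transporter, stood at 0.00 ± 0.08, not called. CAT8 and SIP4, activators of gluconeogenesis, rose by 3.28 ± 0.27 and 3.30 ± 0.35, and MLS1, malate synthase, by 2.97 ± 0.19. In the pentose phosphate pathway the stress isozymes SOL4 and NQM1 rose by 4.51 ± 0.12 and 3.96 ± 0.09, and RKI1, ribose-5-phosphate isomerase, was lower at −3.04 ± 0.18.

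Most genes of fatty acid breakdown rose, and sterol genes moved in both directions. Of 15 genes of peroxisomal beta-oxidation 14 were higher, with a median of 1.48. POX1, acyl-CoA oxidase, read 4.60, 4.06 and 2.94 in DMSO and 8.82 and 8.96 in SMER1+Rapa, a difference of 5.02 ± 0.50, the thiolase gene POT1 rose by 4.82 ± 0.31 and the carnitine carrier gene CRC1 by 4.05 ± 0.12. CRC1 was above rapamycin by 0.74 ± 0.14 and above SMER1 by 1.43 ± 0.14, and with PXA1, PXA2 and CAT2 it was 1 of the 4 genes of the list above both. Of 30 sterol genes 16 were lower (31.2% of all genes were) and 5 higher, with 10 lower, near that share, without the second SMER1+Rapa array and a median of −0.31, and 25 were called below rapamycin alone (28.2% of all genes). ERG3, a sterol desaturase, read 12.79, 12.82 and 12.70 in DMSO, 13.13 and 13.02 with rapamycin, 11.63 and 11.38 with SMER1 and 11.48 and 11.38 with both, and CYB5, cytochrome b5, differed from DMSO by −2.27 ± 0.09.

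Most genes of nucleotide synthesis fell. Of 19 purine genes 16 were called lower and 1 higher, with a median of −1.11, and 18 were below rapamycin alone (28.2% of all genes). HPT1, a salvage transferase, read 12.74, 12.58 and 12.59 in DMSO and 9.997 and 10.06 in SMER1+Rapa, a difference of −2.61 ± 0.12, IMD4, of guanine nucleotide synthesis, differed by −2.38 ± 0.13, and ADE17 by −1.89 ± 0.09, where its isozyme ADE16 was the 1 gene higher, 0.32 ± 0.09, and not called without either SMER1+Rapa array (adjusted p = 0.0843 and 0.0504). Of 13 pyrimidine genes 10 were lower and 2 higher. FUR4, the uracil permease, read 10.84, 11.10 and 11.08 in DMSO, 7.75 and 8.28 with rapamycin, 9.23 and 9.71 with SMER1 and 7.78 and 8.02 with both, at −0.12 ± 0.22 from rapamycin, not called. URA7, CTP synthase, differed from DMSO by −2.76 ± 0.37 while its isozyme URA8 rose by 0.70 ± 0.06, and URA10 rose by 2.39 ± 0.14 where its isozyme URA5 was lower at −0.68 ± 0.12. Amino acid synthesis was mixed. Of 30 genes of branched-chain, aromatic amino acid and histidine synthesis 10 were higher and 14 lower (39.6% and 31.2% of all genes). Below rapamycin alone were 20 of them (28.2% of all genes). LEU9 was lower at −2.90 ± 0.07 where its isozyme gene LEU4 rose by 0.48 ± 0.08, and the breakdown genes ARO9 and ARO10 rose by 0.96 ± 0.10 and 1.26 ± 0.13, less than with rapamycin alone. Of 17 genes of arginine and lysine synthesis 5 were higher and 4 lower (39.6% and 31.2% of all genes).

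Metal, phosphate and wall genes moved in both directions, and drug resistance genes rose or were not called. Over all genes 39.6% were called higher and 31.2% lower. Of 28 iron genes 13 were higher, near the share of all genes, and 2 lower, with LSO1 the largest rise at 5.67 ± 0.41. TIS11, which degrades messengers of iron-using proteins, stood at 1.38 ± 0.16 and the mitochondrial iron carrier gene MRS4 at 1.46 ± 0.11. The uptake gene FET3 stood at −0.09 ± 0.11, not called. It was called lower after quantile normalisation (−0.32, adjusted p = 0.00532) and with the replicate block (−0.19, adjusted p = 0.00924). FTR1, another uptake gene, was called lower at −0.22 ± 0.07. That call was lost without the second DMSO array (adjusted p = 0.0634) or the first SMER1+Rapa array. In the zinc list of 9, 4 were higher, among them the factor ZAP1 at 1.24 ± 0.09, and 5 lower, led by IZH4 at −2.24 ± 0.14. Of 23 phosphate genes 6 were higher and 8 lower. PHO89, a sodium-coupled phosphate transporter, read 12.53, 12.48 and 12.46 in DMSO, 9.65 and 9.55 with rapamycin, 12.52 and 12.62 with SMER1 and 11.21 and 11.66 with both, so the combined treatment lay above rapamycin by 1.84 ± 0.14 and at −1.13 ± 0.14 from SMER1. PHO90, a low-affinity phosphate transporter, was lower at −2.005 ± 0.13. Of 25 genes of the cell wall and its integrity pathway 14 were higher and 4 lower, with the kinase genes KDX1 and SLT2 at 1.53 ± 0.13 and 1.15 ± 0.08, both below rapamycin alone. Of 14 drug resistance genes, targets of Pdr1 and Pdr3 with the genes of these 2 factors among them, 10 were higher. RTA1 stood at 2.12 ± 0.14 and the pump gene PDR5 at 0.37 ± 0.10, the latter not called without the first SMER1+Rapa array.

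**Figure D3:**
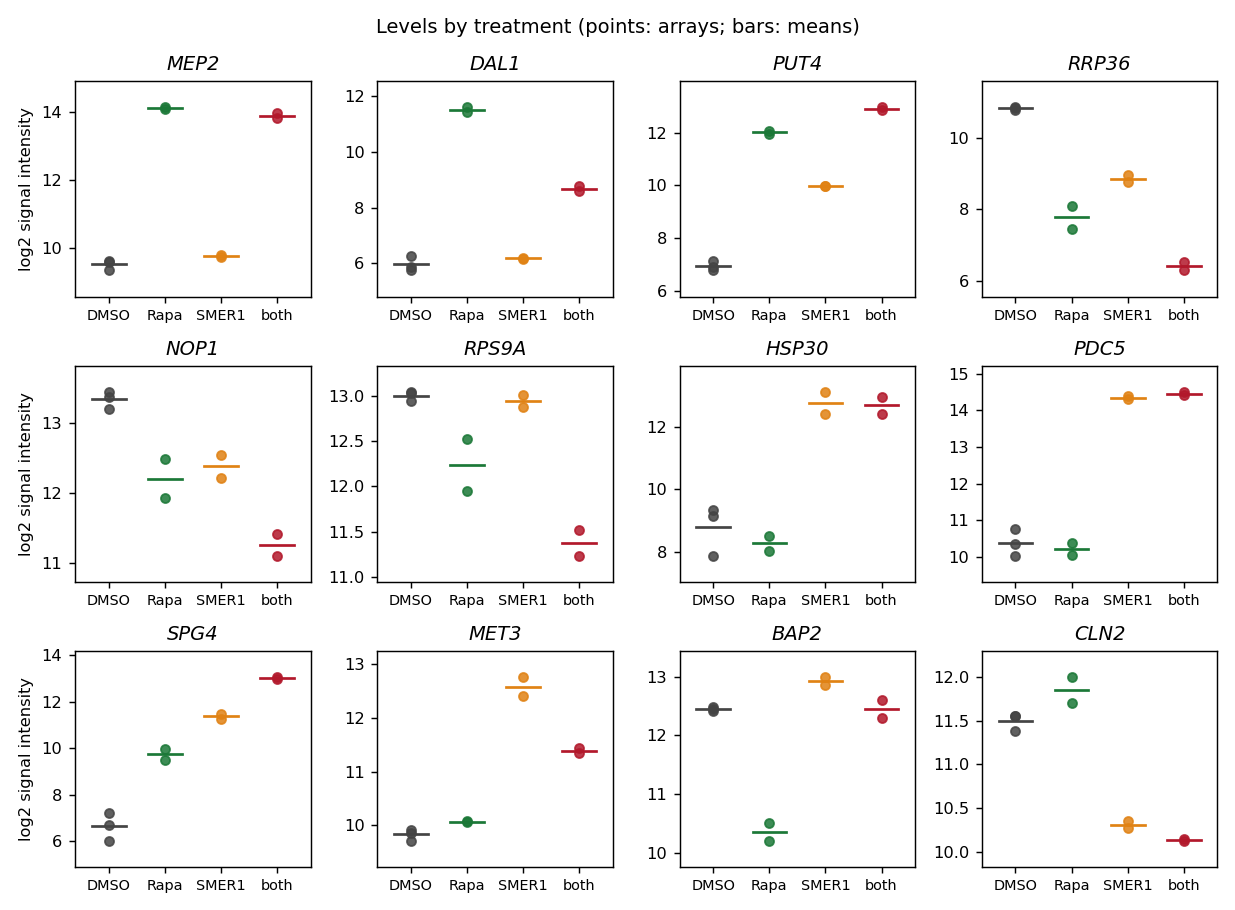
Deposited log2 intensity of 12 genes in DMSO (n = 3), rapamycin, SMER1 and SMER1+Rapa (n = 2 each); points are arrays, bars group means, and each panel has its own axis range. MEP2 is high in both rapamycin groups, PDC5 and HSP30 in both SMER1 groups, RRP36 and RPS9A are lowest with both agents, MET3 lies between the single agents, and BAP2 is low with rapamycin alone.

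Genes on which the combined treatment went past both single agents were fewer on the high side than on the low side. Called in the same direction against rapamycin and against SMER1 were 110 genes higher (2.02%) and 474 lower (8.7%). Quantile normalisation gave 221 and 468, and the replicate block 347 and 844. With any 1 array of these 3 groups left out the counts were between 20 and 88 and between 245 and 452, and the lowest on the high side came without the second SMER1+Rapa array. SPG4 led the high side, reading 9.51 and 9.97 with rapamycin, 11.25 and 11.48 with SMER1 and 13.05 and 12.99 with both, and stood 3.28 ± 0.34 above rapamycin and 1.65 ± 0.34 above SMER1. ATO2 stood 3.22 ± 0.09 and 1.56 ± 0.09 above them, SPG1, another stationary phase gene, 2.09 ± 0.18 and 1.05 ± 0.18, DAK2, dihydroxyacetone kinase, 1.11 ± 0.12 and 0.99 ± 0.12, and ISF1 1.35 ± 0.19 and 0.98 ± 0.19. Also among the 12 were YKL107W, YGR174W-A, CTT1, CSR2, PUT4, GTO1 and RGI2. On the low side JJJ3 led, at −1.68 ± 0.24 from rapamycin and −1.58 ± 0.24 from SMER1. RIX1 stood at −1.57 ± 0.24 and −2.04 ± 0.24, EMW1 at −1.54 ± 0.14 and −1.36 ± 0.14, RNT1, the RNase III that trims ribosomal RNA, at −1.31 ± 0.23 and −1.41 ± 0.23, and ATC1 at −1.30 ± 0.28 and −2.03 ± 0.28. The other members of the 12 were NOG2, RRP36, NOG1, RCL1, DBP8, MRD1 and RPF1, all of ribosome assembly. Of the 474 genes, 191 were in the lists of ribosome assembly, particle proteins, polymerases I and III, ribosomal proteins, translation factors or synthetases. Those lists hold 352 of the 5449 genes and were chosen with earlier results of these data known.

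**Figure D4:**
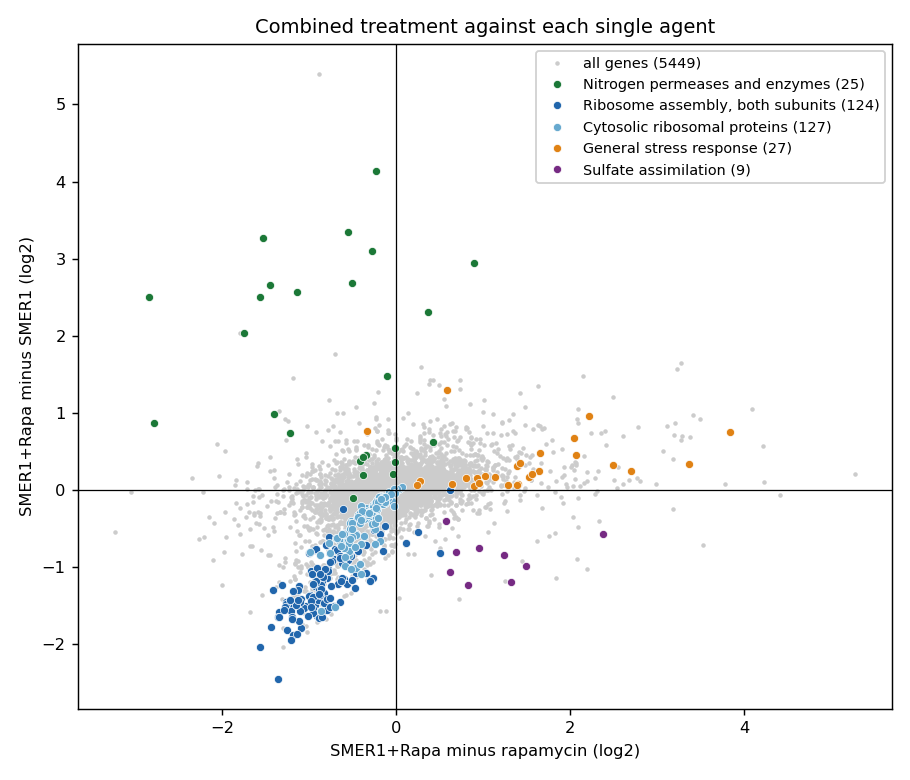
Difference of SMER1+Rapa from rapamycin alone (horizontal axis) and from SMER1 alone (vertical axis), in log2 units, for 5449 genes (grey) and the members of 5 lists (coloured). Both differences share the SMER1+Rapa arrays. Most ribosome assembly factors lie in the lower left, where both differences are negative, and most nitrogen genes above 0 on the vertical axis. Most general stress genes lie to the right near 0 on the vertical axis, and most sulfate genes in the lower right.

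Against rapamycin alone, the 12 largest rises were all in genes that SMER1 alone also raised against DMSO, and the falls included genes of both kinds. YER053C-A read 6.97 and 6.67 with rapamycin and 12.05 and 12.15 with both, a difference of 5.28 ± 0.21 (adjusted p = 1.31e-05), and 11.66 and 12.12 with SMER1. After it came HSP30 at 4.41 ± 0.49, PDC5 at 4.23 ± 0.22, PHM7 at 4.21 ± 0.16 and SPS100 at 4.09 ± 0.55. Lowest against rapamycin were HO at −3.23 ± 0.17, the aspartic protease gene YPS3 at −3.05 ± 0.20, the allantoin genes DAL1 and DAL4 given above, HES1, of the oxysterol-binding family, at −2.34 ± 0.22, RNR1 at −2.27 ± 0.09 and IZH4 at −2.22 ± 0.15. Of these 7, RNR1 was called below SMER1 alone at −0.64 ± 0.09 and DAL1 and DAL4 above it at 2.50 ± 0.17 and 0.87 ± 0.13, and the other 4 were not called against it. Against SMER1 alone, the largest falls were those of RRP36 at −2.44 ± 0.19, RIX1 at −2.04 ± 0.24, ATC1 at −2.03 ± 0.28 and RRP8, a ribosomal RNA methyltransferase, at −1.95 ± 0.23.

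Genes that mark other cell types were read on the same arrays. BY4741 is an a cell, and of 15 genes of alpha cells and meiotic diploids 9 were called higher than DMSO and none lower, with a median of 1.06. STE3, the receptor that alpha cells carry, read 7.21, 6.58 and 6.94 in DMSO and 8.39 and 8.49 in SMER1+Rapa, and the alpha factor gene MF(ALPHA)2 read 5.91, 5.56 and 6.37 and 3.96 and 6.65, groups that overlap. The early meiosis regulator IME1 stood at −0.05 ± 0.16 and the kinase gene IME2 at 1.06 ± 0.09, the latter called. Most of these genes were dim. None was called with the dimmest 25% of genes left out, but that step takes dim genes out of the test, so it does not retest these calls. Of 14 a-cell and pheromone genes 7 were lower and 1 higher, with the factor STE12 at −1.13 ± 0.20 and the a-factor gene MFA1 at 0.13 ± 0.07, not called. Of the loci altered in the strain, URA3 read 4.11, 4.55 and 3.72 in DMSO and 1.97 and 3.21 in SMER1+Rapa and MET17 4.66, 4.32 and 5.75 and 4.27 and 5.17. Of these 4 loci 2 were called lower, URA3 among them at −1.54. The URA3 call was lost with values below 5 set to 5, with trend and robust moderation (adjusted p = 0.0639) and without the second DMSO array (adjusted p = 0.0538). It was also lost without the first SMER1+Rapa array, where the difference was −0.92. Calls on values this low can thus hang on how low values are treated and on 1 array. What part mixed cell types have in these values was not tested.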

How the data were processed

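RNA from BY4741 cultures was labelled as biotin cRNA and hybridised to 1-colour Affymetrix arrays, per the labels' protocols. The deposited values are log2 signal intensities, a scale read from their range; the authors' probe summary and normalisation are not given in the sources used here. Probe sets were named from the platform annotation, with 5498 of 5716 holding 1 gene name, and symbols were updated through RefSeq R64. For the 47 genes with several probe sets the brightest was kept. Group means were fitted with limma 3.58.1 in R 4.3.3 over all 13 arrays, 8 groups and 5 residual degrees of freedom, with Benjamini-Hochberg adjustment over 5449 genes and a two-sided threshold of 0.05. The script was tested on simulated data. Named genes are the 20 largest changes in each direction, members of the gene lists, and the 12 largest differences beyond both agents or from either. Members and lists were chosen with earlier results of these data known, and the list members named as examples with their values in view. The planned description of promoter motifs was not run. Alternatives changed scaling, low values, probe sets, variance moderation, samples and replicate block. The number of arrays limits the precision.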

Additional observations from a re-analysis of the deposited data

Results flagged for a closer look

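The platform annotation used here gives no gene name for 218 of the 5716 probe sets, and these entered no comparison. On 46 of them both SMER1+Rapa arrays lay at least 2-fold above every DMSO array, and on 13 at least 2-fold below every DMSO array. The widest gap was 6.72 on the log2 scale, from 5.60 on the highest DMSO array to 12.31 on the lowest SMER1+Rapa array. They were singled out because they carry signal outside the named genes, and the groups of 2 and 3 arrays were too small for a search for outlying arrays.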

How the results depend on the processing

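The 3860 genes called against DMSO became between 3043 (without the lowest 25% of genes) and 4333 (replicate block) under the alternatives, and between 3334 and 3770 with 1 compared array left out. Of them, 2975 to 3859 were called in the same direction, and 2 were called the opposite way, after quantile normalisation. The comparisons with the single agents depended more on the arrays and settings. Leaving out 1 array gave 1643 to 2043 calls against rapamycin and 607 to 819 higher. Against SMER1 it gave 445 to 559 calls, 90 to 133 higher and 341 to 434 lower. Beyond both agents it gave 20 to 88 higher and 245 to 452 lower, and below both 29 to 51 processome factors and 19 to 36 ribosomal proteins.

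The replicate block gave 1804 calls against SMER1 (686 higher, 1118 lower), 347 and 844 genes beyond both agents and 92 ribosomal proteins below both. Same-numbered DMSO and SMER1+Rapa arrays deviated together with r = 0.43 and 0.131, DMSO and SMER1 arrays with 0.551 and 0.0705, and DMSO and rapamycin arrays with 0.525 and 0.0848. Among the treated groups r was 0.436 for SMER1+Rapa and rapamycin, 0.552 for SMER1+Rapa and SMER1 and 0.598 for rapamycin and SMER1, 1 value a pair, since the deviations of 2 arrays mirror each other. These correlations are a hint from the data. With 2 shared numbers and no label of a shared culture or day, the arrays are taken to share only a number. Quantile normalisation gave 475 higher against SMER1, 221 beyond both, 75 ribosomal proteins below both, 8 glycolytic and 5 alpha-cell or meiotic genes higher, and fitting only the groups compared gave 173 higher against SMER1. Without the lowest 25% of genes, which tests fewer members, 73 genes were above both agents, and the lists gave 6 nitrogen permeases, 7 glycogen, 13 autophagy, 3 hexose transport, 3 gluconeogenesis, 5 beta-oxidation, 3 stationary phase and 0 alpha-cell or meiotic genes higher. With 1 array left out the ranges are 7 to 11 TOR genes, 6 to 10 methionine, 5 to 10 hexose transport, 7 to 14 glycolytic and 3 to 6 DNA damage genes higher, and 8 to 15 synthetases, 2 to 5 endoplasmic reticulum folding genes and 10 to 16 sterol genes lower.

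Over the 232 named genes and all alternatives, 2833 values kept their direction and their side of the threshold, 33 lost the call, 29 gained it and 47 changed sign, and none of the genes that changed sign was called in the values reported. After quantile normalisation BAP2 stood at −0.17, MCM5 at 0.03, MFA1 at −0.08, PGK1 at −0.05, RPL10 at −0.06, RPL3 at −0.10, ASH1 at −0.03 and TDH3 at −0.13, the last called (adjusted p = 0.0479). Median centring gave 0.01 for CYC1, HXT1 and TOR2 and 0.00 for MCM5 and SIC1. The replicate block gave CYC1 and HXT1 0.02, MCM5 0.01, MET17 0.23, RPL3 −0.05, RTG3 0.00 and TDH3 −0.03. With 1 array left out BAP2 ranged from −0.14 to 0.15, CYC1 from −0.07 to 0.04, HXT1 from −0.02 to 0.02, IME1 from −0.19 to 0.09, MCM5 from −0.06 to 0.04, MET17 from −0.64 to 0.26, MF(ALPHA)2 from −1.98 to 0.70, RPL3 from −0.05 to 0.13, RPS3 from −0.10 to 0.00, SIC1 from −0.06 to 0.03, TDH3 from −0.03 to 0.03, TOR2 from −0.13 to 0.13, RTG3 from −0.06 to 0.11, ASH1 from −0.04 to 0.04 and WHI5 from −0.19 to 0.45. The causes were not tested. With 2 or 3 arrays a group, small differences are not resolved, and no detection call was used, so low values have no measured signal over background.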

Other observations

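Several smaller gene groups complete the picture of the combined treatment against DMSO, each given by its counts, the members at its extremes and the values of any others named. Of 7 eisosome genes, which shape furrows in the plasma membrane, 6 were called higher and 1 lower. FMP45 rose by 4.69 ± 0.25 beside its relative YNL194C, the core subunits PIL1 and LSP1 by 0.71 ± 0.08 and 1.09 ± 0.05, and SUR7, the family's namesake, was lower at −0.21 ± 0.07, a call lost without the second DMSO array or either SMER1+Rapa array (adjusted p between 0.0904 and 0.145). Of 11 glycerol genes 7 were higher and 2 lower. GCY1, a glycerol dehydrogenase, read 10.26, 10.18 and 10.36 in DMSO and 13.72 and 13.71 in SMER1+Rapa, a difference of 3.45 ± 0.07, while GPD2, a glycerol-3-phosphate dehydrogenase, was lower at −1.21 ± 0.30 (adjusted p = 0.0672 without the first SMER1+Rapa array) where its isozyme gene GPD1 rose by 0.91 ± 0.08. Of 7 retrograde genes, which answer to mitochondrial state, 5 were higher, led by the peroxisomal citrate synthase gene CIT2 at 1.40 ± 0.11, and the factor RTG3 and the regulator MKS1 stood at 0.02 ± 0.11 and −0.16 ± 0.07, not called, although MKS1 passed without the third DMSO array (adjusted p = 0.049).

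The 12 DNA damage genes split, with 6 higher and 5 lower (39.6% and 31.2% of all genes). Fewer were higher without the first SMER1+Rapa array. MAG1, a DNA glycosylase, rose by 1.69 ± 0.08, PLM2 was lower at −1.06 ± 0.08, and MEC1, the checkpoint kinase, stood at 0.21 ± 0.13, not called. Of 11 daughter-cell genes 3 were higher and 1 lower, from AMN1 at −0.44 ± 0.06 to the chitinase gene CTS1 at 0.50 ± 0.09, and ASH1 stood at 0.01 ± 0.07, not called. Of 8 stationary phase and vitamin B6 genes 5 were higher. SPG1 rose by 3.21 ± 0.17 beside SPG4, and SNZ1, of vitamin B6 synthesis, stood at −0.20 ± 0.08, called only without the third DMSO array among the arrays left out (adjusted p = 0.0111).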
